A study of Drosophila melanogaster with 2 samples.

Results

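Intronic sites of CG31365 that lie away from any start site numbered 702, which is 24.9% of the reproducible ChIP-seq peaks of this study and a part of the 2621 that lie outside the 200 highest. CG31365 is a Drosophila melanogaster protein that was fused to GFP at its C terminus in a transgenic line and profiled as a transcription factor. Whole embryos of that line, males and females together and 0 to 24 h old, gave 2 biological replicates, numbered 2 and 3, and both replicates form the 1 group of the series. The line carries the tagged gene as an insertion, so the tagged protein is what was mapped, and embryos of all stages and cell types were mixed. The labels name CG31365 as the ChIP target, but 1 free-text field calls both libraries input controls. They were treated here as immunoprecipitated libraries, and no other library was analysed here. The tag itself could not be checked, because peak lists hold no expression values and no untagged embryos are among the samples.

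Members were chosen on measured values: a place in the list that passed the irreproducible discovery rate (IDR) step, and a signal value (the enrichment that the peak caller gave each peak) outside the 200 highest. Position completed the rule. The summit, the point of highest enrichment, had to lie more than 1000 bp from any annotated start site, inside a gene and in no exon. Signal values, ranks and distances to start sites are therefore given as a description. Just inside the upper limit stood a peak of 730 (rank 202), and the nearest intronic peak left out had 744 (rank 195), 1 of 29 left out for height. At the lower end the last member had 124.258 and the highest intronic peak outside the IDR list 124.124. The closest member lay 1004 bp from a start site, and 543 intron peaks lay nearer than 1000 bp, the farthest of them at 990 bp. No filter on low values was applied, so all 702 members enter every count.

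An intron is transcribed and then removed from the RNA, and in flies the long introns of regulatory genes are known to hold many enhancers. A ChIP-seq peak in such an intron marks DNA that the tagged protein touched directly or through other proteins, and it does not show which gene, if any, is regulated. Forkhead proteins are a large family of transcription factors that bind short A-rich and T-rich sites such as TGTTTAC on one strand. The insulator protein CTCF and the promoter proteins DREF and M1BP also bind DNA, and the sites of the promoter proteins are known from the start sites of broadly active genes.

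The DNA under 9 of the 10 highest members shows how the sites begin. Each line gives the host gene and the plus strand within 50 bp of the summit, from the RefSeq copy of assembly dm6. Capitals mark AAGCAGT, a word found earlier under the highest peaks of the whole list, and GTAAACA or GTAAATA, a pair of words of forkhead type, on either strand.
csw (chrX:2096516-2096616): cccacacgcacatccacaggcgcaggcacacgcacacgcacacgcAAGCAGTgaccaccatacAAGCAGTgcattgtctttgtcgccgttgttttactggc
cno (chr3R:5215480-5215580): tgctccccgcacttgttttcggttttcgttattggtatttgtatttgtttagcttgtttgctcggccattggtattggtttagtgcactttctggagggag
norpA (chrX:4324922-4325022): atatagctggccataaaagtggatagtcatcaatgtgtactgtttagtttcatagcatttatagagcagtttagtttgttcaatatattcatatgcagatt
oc (chrX:8634952-8635052): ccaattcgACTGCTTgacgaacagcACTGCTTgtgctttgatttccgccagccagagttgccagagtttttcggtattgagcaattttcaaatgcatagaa
Raf (chrX:2297670-2297770): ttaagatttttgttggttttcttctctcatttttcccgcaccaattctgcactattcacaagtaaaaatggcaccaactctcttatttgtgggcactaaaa
ClC-a (chr3R:11807781-11807881): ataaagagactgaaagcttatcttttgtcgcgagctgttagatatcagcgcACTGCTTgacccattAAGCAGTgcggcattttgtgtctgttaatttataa
AnxB9 (chr3R:21069873-21069973): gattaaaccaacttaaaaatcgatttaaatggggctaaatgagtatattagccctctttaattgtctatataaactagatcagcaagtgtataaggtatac
CG32486 (chr3L:3060741-3060841): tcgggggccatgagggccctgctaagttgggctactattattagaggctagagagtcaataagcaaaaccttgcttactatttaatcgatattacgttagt
Hr4 (chrX:1951866-1951966): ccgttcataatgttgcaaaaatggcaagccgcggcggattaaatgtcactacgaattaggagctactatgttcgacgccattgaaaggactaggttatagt
The csw, oc and ClC-a peaks each show 2 copies of AAGCAGT within these bases, and the copies at ClC-a stand on opposite strands. The other 6 stretches shown hold none of these words. With 1 of the 10 not shown, these lines give no share for the highest members, and the shares by rank stand further on.

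The next 6 stretches are examples of 3 words that passed a test on held-out chromosomes, described further on. For each word in turn 2 members of high signal that hold it within 50 bp were taken, passing over members already taken, so higher members can hold these words too. S and SCaMC were taken for GTAAATA, trx and Dys for AAATATT, and CG13894 and Moe for ATATTTA. Capitals mark the word a peak was taken for and the forkhead-type pair.
S (chr2L:1072336-1072436): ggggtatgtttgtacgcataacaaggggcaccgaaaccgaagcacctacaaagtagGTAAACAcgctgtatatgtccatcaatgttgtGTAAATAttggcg
SCaMC (chr3L:12407106-12407206): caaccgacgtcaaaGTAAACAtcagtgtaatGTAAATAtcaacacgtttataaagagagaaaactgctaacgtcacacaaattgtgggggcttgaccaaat
trx (chr3R:14283809-14283909): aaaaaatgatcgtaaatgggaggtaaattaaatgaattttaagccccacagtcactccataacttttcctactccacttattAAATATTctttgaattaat
Dys (chr3R:19499195-19499295): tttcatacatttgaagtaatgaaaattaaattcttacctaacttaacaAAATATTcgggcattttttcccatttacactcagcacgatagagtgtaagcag
CG13894 (chr3L:696918-697018): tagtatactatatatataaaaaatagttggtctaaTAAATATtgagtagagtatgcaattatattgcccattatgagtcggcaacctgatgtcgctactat
Moe (chrX:8896229-8896329): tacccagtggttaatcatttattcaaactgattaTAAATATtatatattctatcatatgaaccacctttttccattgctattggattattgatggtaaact
Both S and SCaMC carry GTAAACA beside GTAAATA. The trx, Dys, CG13894 and Moe stretches carry no forkhead-type word.

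The highest members lay in genes of several kinds. The csw peak (X, 2096398 to 2096768), in the gene of a tyrosine phosphatase of receptor tyrosine kinase signalling, had a signal of 730 in the pooled replicates, 437 in replicate 2 and 291 in replicate 3. Raf, which encodes a kinase of the same pathway, had a peak of 680 (X, 2297577 to 2297856), with 290 in replicate 2 and 389 in replicate 3. S, whose product Star helps to export an EGFR ligand, had 541 (2L, 1072270 to 1072509), with 318 in replicate 2 and 231 in replicate 3. These 3 genes serve one signalling route, and which replicate gave the higher signal differed among them.

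Cytoskeletal and membrane genes stood beside them. Lrch, which encodes a cortical protein with leucine-rich repeats, had 725, with 449 in replicate 2 and 276 in replicate 3. For cno, the gene of the junction protein Canoe, the peak of 708 (3R, 5215400 to 5215662) had 373 in replicate 2 and 336 in replicate 3. Peaks in AnxB9, an annexin gene (645), Nost, a nostrin gene (547), and ClC-a, a chloride channel gene (649), followed. ClC-a had the widest gap between replicates of these 15 peaks, with 462 in replicate 2 and 187 in replicate 3.

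Regulators of transcription were the third kind. The peak in oc, which encodes the head homeodomain protein Orthodenticle, reached 688 (X, 8634829 to 8635180), with 392 in replicate 2 and 289 in replicate 3. Hr4, a nuclear receptor gene of the ecdysone response, had 577 (X, 1951789 to 1952033), with 281 in replicate 2 and 299 in replicate 3. The gene of the Trithorax histone methyltransferase, trx, had 565 (3R, 14283743 to 14284007). The remaining peaks of the 15 highest lay in norpA, the phospholipase C gene of phototransduction (689), and in CG32486 (644), CG12769 (544) and CG1677 (543).

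Nearly every member was seen in both replicates, which the IDR step selects for, so this is a description. A summit within 100 bp was present in both replicate lists for 681 members (97.0%), set against 39.0% of all 30000 pooled peaks and 30.5% of low-ranked intronic peaks. For intergenic IDR peaks away from start sites it was 94.9%. In replicate 2 the matched peaks had signals of 34.8 to 462 with a median of 96.6, and in replicate 3 they had 21.9 to 389 with a median of 85.2. Across the 681 members the signals of the replicates had a Spearman coefficient of 0.570 and a Pearson coefficient of 0.646 on the log2 scale. Peaks are not independent replicates, and these values describe peaks that the selection kept for reproducibility.

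**Figure D1:**
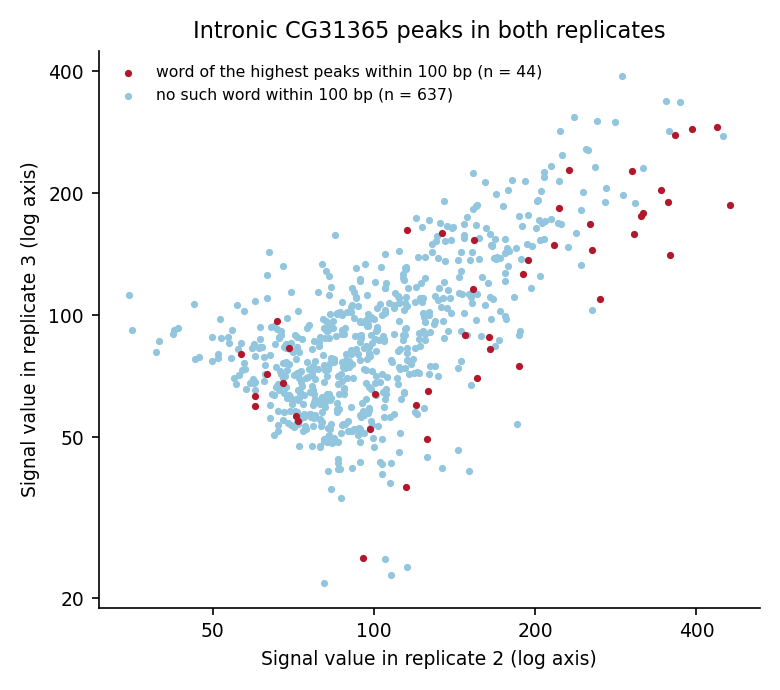
Signal value of each intronic peak in replicate 2 (x axis, log) and replicate 3 (y axis, log) for the 681 peaks with a summit within 100 bp in both lists; red points hold AAGCAGT within 100 bp of the pooled summit. Red points occur over most of the range of both axes, and the one farthest to the right is ClC-a, with 462 in replicate 2 and 187 in replicate 3.

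Members were spread over 466 host genes, the longest protein-coding gene at a summit being taken as host where several overlapped (7.12% of members). Hosts with 1 member numbered 328, with 2 members 88 and with 3 members 28. The 22 hosts with 4 or more members held 114 of the peaks. Low-ranked intronic peaks are used below for comparison: 10091 pooled peaks outside the IDR list, overlapping none of it, that meet the same rule on position. A second set, called next-ranked, is the 793 of them with the highest ranks, taken from as many low-ranked peaks as the IDR list has entries, with signals from 80.8 to 124.124. Members had a median signal of 176.3, next-ranked intronic peaks 96.0 and all low-ranked intronic peaks 38.7.

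Among hosts with several members were genes of nuclear proteins. The gene of the corepressor Scribbler, sbb, held 8 peaks between 129 and 376, and shn, which encodes the zinc finger protein Schnurri of Dpp signalling, held 8 between 125 and 309. Hr4 held 7, of which 3 had signals of 577, 511 and 400 and the other 4 lay between 151 and 178. The basic helix-loop-helix gene crp had 6 peaks up to 496, tara 6 up to 324, and the GATA cofactor gene ush 5 up to 364. Eip75B, a nuclear receptor gene induced by ecdysone, had 5 peaks up to 355, and CHES-1-like, itself a forkhead gene, had 5 between 192 and 292. Low-ranked intronic peaks in the same hosts numbered 34 in sbb, 20 in shn, 18 in Hr4, 9 in crp, 25 in tara, 25 in ush, 44 in Eip75B and 7 in CHES-1-like.

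Kinases, receptors and cell surface genes were among the rest. Raf held 6 peaks within 6342 bp, with signals of 680, 375, 328, 183, 159 and 126, so its summits stood close together in a gene of 48405 bp. The myoblast fusion gene kirre, which encodes an immunoglobulin family receptor, held 5 peaks over 310414 bp with signals of 145 to 304. Tlk, a kinase gene, had 5 peaks up to 314, and the TSC-22 family gene bun had 5 up to 278. The 4 peaks of fra, the netrin receptor gene, reached 460, those of fz, the Frizzled receptor gene, 378, and those of InR, the insulin-like receptor gene, 312. The 6 peaks of CG1677 reached 543, 5 of Tet 213, and 4 each of apt, CG46385, atos and px reached 355, 325, 291 and 254. Low-ranked intronic peaks numbered 13 in Raf, 26 in CG1677, 64 in kirre and 2 to 40 in the other hosts of this paragraph and Lrch.

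**Figure D2:**
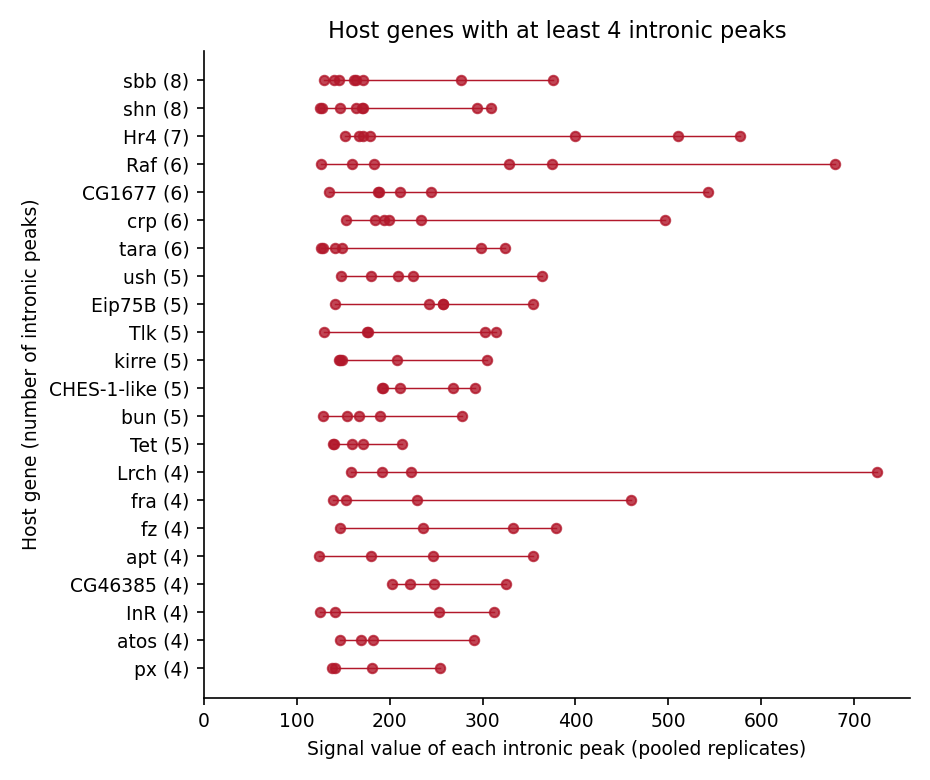
Signal value in the pooled replicates (x axis) of each intronic peak in the 22 host genes that hold 4 or more, with the number of peaks after each name; each point is 1 peak and the line spans a gene's lowest to highest value. Lrch and Raf combine 1 peak of 725 or 680 with much lower ones, while the 5 peaks of CHES-1-like lie between 192 and 292.

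Length alone gives a gene more room for peaks, so lists of host genes are set beside the low-ranked intronic peaks. They are described by counts, with no test, since the lists were chosen with earlier results known. A list counts any of its genes that spans a summit, also where a longer gene there is the host. Genes of the ecdysone response held 22 members (3.13%, in 8 of 18 genes), set against 1.89% of low-ranked intronic peaks and 2.90% of next-ranked ones. Hr3, an ecdysone-response nuclear receptor gene, had 2 of them, the higher at 508. Genes of the Notch, EGFR, Wg, Hh, Dpp and Hippo pathways held 39 members (5.56%, in 22 of 62 genes), set against 4.12% of low-ranked and 4.92% of next-ranked peaks. The EGFR inhibitor gene aos had a peak of 420, at a summit whose host is CG33158, and the EGFR ligand gene vn 1 of 376. Insulin and TOR genes held 12 members (1.71%, in 4 of 28 genes), set against 0.882% and 1.26%, with 312 at InR and 306 at ImpL2, which encodes a secreted insulin-binding protein. The TSC-22 family gene bun, counted in this list, held 5 of the 12, InR 4 and ImpL2 2. As a host bun also held 40 low-ranked intronic peaks, so a large part of this list's count rests on 1 gene.

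The other lists had a lower share among members than among low-ranked intronic peaks. Neuronal recognition genes held 18 members (2.56% against 4.80%), with caps at 324 and the netrin gene NetB at 316 after fra. Ion channel and receptor genes held 5 (0.712% against 1.58%), 3 of them in the potassium channel gene Irk1, the highest at 254, and 1 each in Ih (165) and Nmdar1 (135, where the host is Itpr). RNA-binding protein genes held 9 (1.28% against 2.51%), the highest in Rbfox1 (306), bru2 (221) and pum (205). Developmental transcription factor genes held 15 (2.14% against 2.93%), led by the Hox gene Antp (343), grh (275) and bab1 (273). Among next-ranked peaks the share was 2.65% for neuronal recognition genes and 0.883% for ion channel and receptor genes, both above the share of members. For RNA-binding protein genes it was 0.757% and for developmental transcription factor genes 2.02%, both below the share of members. For each of the 7 lists described here and above, the share among next-ranked peaks was nearer to that of members than the low-ranked share was.

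First introns held more of the members than of the low-ranked intronic peaks. The first intron of a transcript held 475 of 702 members (67.7%, 95% Wilson interval 64.1 to 71.0), against 57.7% of low-ranked intronic peaks (odds ratio 1.54, interval 1.31 to 1.81, p = 1.6e-07, two-sided Fisher's exact test). Among next-ranked intronic peaks 65.7% were in a first intron, which ended the call (odds ratio 1.09, interval 0.88 to 1.36, p = 0.442, Fisher's exact test). The distance to the nearest start site had a median of 3236 bp for members and 4357 bp for low-ranked peaks, and it moves with this share. The shortest annotated intron that holds the summit had a median length of 10076 bp over members and 11912 bp over low-ranked peaks. An intron with several peaks was counted for each. Neighbouring peaks share their surroundings, so these tests compare peak lists and are not tests over samples.

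Members often had an IDR neighbour. The nearest other IDR summit lay within 2000 bp of 26.6% of members, 12.4% of low-ranked and 18.3% of next-ranked intronic peaks, although a low-ranked peak could not overlap an IDR peak by its definition. A gene spanning the summit, the host or another, also had an IDR peak within 1000 bp of a start site for 337 members (48.0%). The share was 39.3% of low-ranked and 45.3% of next-ranked intronic peaks. Chromosome X held 164 members (23.4%), 18.3% of low-ranked and 18.7% of next-ranked peaks. Chromosome 4 held none of the members, and it held few of the other peaks too: 0.0793% of low-ranked and 0.126% of next-ranked ones. These shares are given as a description, with no test.

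Forkhead sites were more frequent at members, and Scalloped sites less frequent, than at low-ranked intronic peaks. Consensus sequences were searched on both strands within 100 bp of each summit, and 2 of 33 (6.06%) passed at a Benjamini-Hochberg adjusted p under 0.05. The forkhead site TGTTTAC lay at 85 members (12.1%, interval 9.90 to 14.7) against 6.67% of low-ranked intronic peaks (odds ratio 1.93, 95% interval 1.52 to 2.45, adjusted p = 1.7e-05, Fisher's exact test). CATTCC, the core site of Scalloped, the DNA-binding partner of the Hippo effector Yorkie, lay at 36 members (5.13%, interval 3.73 to 7.02) against 10.2% (odds ratio 0.476, interval 0.338 to 0.669, adjusted p = 5.0e-05, Fisher's exact test). A deficit of Scalloped sites was already known for the whole IDR list. Neither call held against next-ranked intronic peaks. There TGTTTAC lay at 10.5%, with a smaller odds ratio of 1.18 (interval 0.855 to 1.62, adjusted p = 0.761, Fisher's exact test). CATTCC lay at 9.21%, with an odds ratio of 0.533 (interval 0.353 to 0.806, adjusted p = 0.0886, Fisher's exact test), close to that against all low-ranked peaks.

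Base composition moved with these counts. The bases within 100 bp of a summit had a median GC content of 38.3% in members, 39.3% in next-ranked and 42.3% in low-ranked intronic peaks. Peaks were also compared within classes of GC content, cut at 30, 35, 40, 45 and 50%, so GC content can still differ inside a class. Within these classes the odds ratio was 1.79 (interval 1.41 to 2.28) for TGTTTAC and 0.534 (0.379 to 0.753) for CATTCC, close to the values without classes. Of 24125 positions spaced 2000 bp apart in introns away from start sites, 4.11% held TGTTTAC and 9.61% held CATTCC in windows of the same length.

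AAGCAGT, the word of the highest peaks, did not pass at these sites. On 2R and 3R, chromosomes that had no part in finding it, it lay at 12 of 301 members (3.99%) against 2.38% of low-ranked intronic peaks, which did not pass. The odds ratio was 1.70 (interval 0.926 to 3.14, unadjusted p = 0.0853, adjusted p = 0.343, Fisher's exact test). Over all chromosomes it lay at 45 members (6.41%), 3.03% of next-ranked and 2.56% of low-ranked intronic peaks. The odds ratios were 2.19 (interval 1.32 to 3.64) and 2.61 (1.88 to 3.62). These values include the chromosomes on which the word was found, where 33 of 401 members held it, so they are a description and no test. The result for AAGCAGT on 2R and 3R depended on how many peaks were kept. With the IDR list shortened by signal to leave 297 members, the odds ratio there was 3.52 (unadjusted p = 0.0021, Fisher's exact test). Without the 400 highest peaks it was 1.31 (unadjusted p = 0.428, Fisher's exact test). The insulator core AGGTGGCGC of CTCF lay at 6 members (0.855%) and 0.198% of low-ranked peaks, and it did not pass after adjustment (adjusted p = 0.061, Fisher's exact test).

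**Figure D3:**
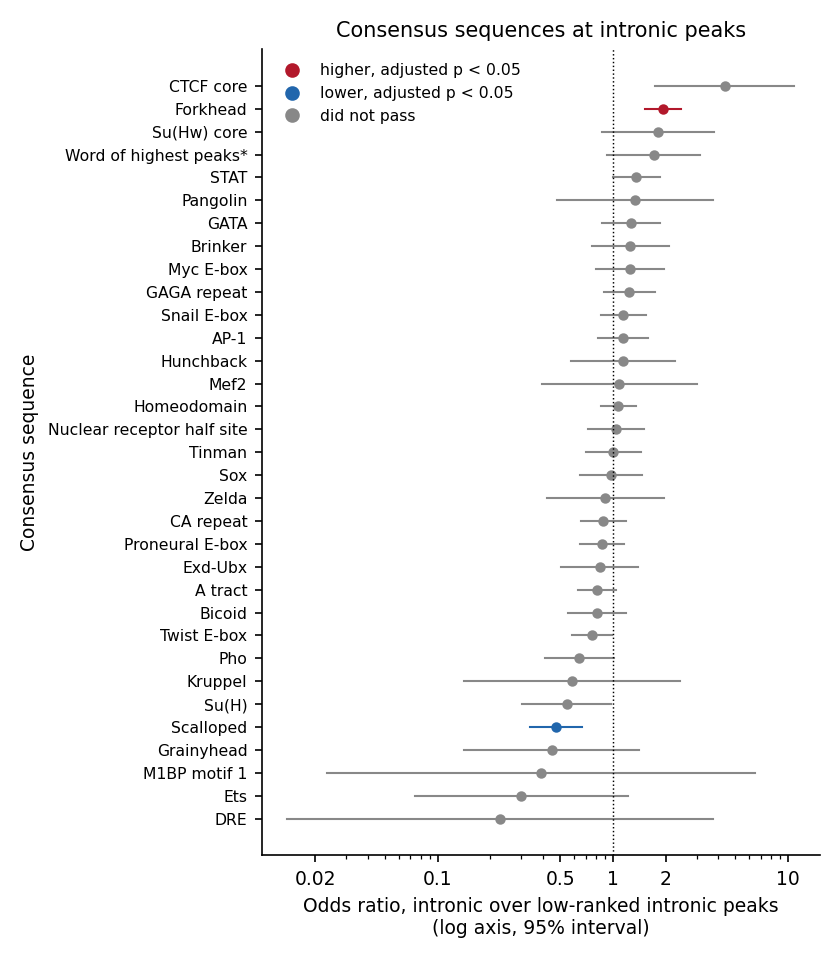
Odds ratio (x axis, log) of each of the 33 consensus sequences at the 702 intronic peaks over 10091 low-ranked intronic peaks, with 95% intervals; the sequence marked with an asterisk is AAGCAGT, counted on 2R and 3R. The forkhead site at 1.93 is the one red point and the Scalloped site at 0.476 the one blue point.

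Promoter elements and, on 2R and 3R, AAGCAGT were less frequent at members than at promoter peaks. Of 33 consensus sequences 4 (12.1%) passed, each lower at members than at the 1628 IDR peaks outside the 200 highest with a summit within 1000 bp of a start site. TATCGATA, the DRE element bound by DREF, lay at 0 of 702 members, which allows a share of up to 0.427% if 3 peaks are taken as the limit (the upper Wilson bound is 0.544%), against 4.73% of promoter peaks (adjusted p = 2.6e-11, Fisher's exact test). GGTCACACT, the promoter element bound by M1BP, lay at 0 members against 2.40% (adjusted p = 1.9e-05, Fisher's exact test). The rule set members and promoter peaks apart by distance to a start site, so these 2 contrasts are not particular to members. At low-ranked intronic peaks TATCGATA lay at 0.307% and GGTCACACT at 0.178%. Neither passed against members there (adjusted p = 0.579 and 0.797, Fisher's exact test). The proneural E-box CAGCTG lay at 7.55% of members against 11.7%, with an odds ratio of 0.614 (Fisher's exact test, adjusted p = 0.0201). At low-ranked intronic peaks CAGCTG lay at 8.64% and did not pass against members, so this contrast is not particular to members either. The odds ratio of members over low-ranked intronic peaks was 0.863 (interval 0.647 to 1.15). AAGCAGT on 2R and 3R lay at 3.99% of members against 9.87% (odds ratio 0.379; adjusted p by Fisher's exact test = 0.0125). TGTTTAC lay at 12.1% of members and 8.66% of promoter peaks, which did not pass (adjusted p = 0.0562, Fisher's exact test).

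Intergenic IDR peaks away from start sites, the set chosen to match members in distance, gave no call. Of 33 consensus sequences 0 (0%) passed against these 237 peaks by Fisher's exact test after adjustment, 5 had an unadjusted p under 0.05, and 2 passed when replicate 3 was left out. TGTTTAC lay at 12.1% of members and 7.17% of intergenic peaks (odds ratio 1.78, interval 1.04 to 3.07, adjusted p = 0.30, Fisher's exact test). AAGCAGT on 2R and 3R lay at 3.99% of members (12 of 301) and 8 of 80 intergenic peaks (odds ratio 0.374, interval 0.147 to 0.948), close to its odds ratio against promoter peaks there. Over all chromosomes, those that found the word included, AAGCAGT lay at 6.41% of members and 8.44% of intergenic peaks. That odds ratio was nearer to 1, at 0.743 (interval 0.429 to 1.29). The proneural E-box lay at 7.55% of members and 2.95% of intergenic peaks (odds ratio 2.68, interval 1.20 to 5.99), on the other side of 1 from its value against promoter peaks. Both sets had a median GC content of 38.3%. Median signal was 176.3 in members and 168.2 in intergenic peaks.

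A search of all 7-base words without regard to known factors gave forkhead-like and AT-rich words. The 10 words with the smallest p on 2L, 3L, X and 4 were tested on 2R and 3R, and 5 (50%) passed there. GTAAATA had the largest odds ratio, at 61 of 301 members (20.3%) against 7.80% of low-ranked intronic peaks (odds ratio 3.01, interval 2.22 to 4.07, adjusted p = 7.1e-10, Fisher's exact test). It differs at 1 base from GTAAACA, which is the forkhead site TGTTTAC read on the other strand. AAATATT lay at 24.9% against 12.9% (adjusted p = 3.8e-07, Fisher's exact test) and ATATTTA at 22.6% against 11.6% (adjusted p = 7.8e-07, Fisher's exact test). Members are richer in A and T, and within the same classes of GC content the odds ratios over all chromosomes were 1.68 for AAATATT (2.15 without classes), 1.61 for ATATTTA (2.06) and 2.20 for GTAAATA (2.61).

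The other 2 words that passed had fewer A and T bases. The word ACAGTGG lay at 8.31% of members against 3.78% (adjusted p = 0.0017, Fisher's exact test), and AGCAGTG, which overlaps AAGCAGT, at 4.98% against 2.35% (adjusted p = 0.0228, Fisher's exact test). AAGCAGT itself did not pass, and neither did the other 4 words, which included CACTGTA (4.65% against 2.83%). Against next-ranked intronic peaks 0 of 10 words passed by Fisher's exact test, and with replicate 2 left out 8 of 10 passed against low-ranked peaks. Over all chromosomes, those that chose the words included, the odds ratio against next-ranked peaks was 1.57 (interval 1.22 to 2.01) for AAATATT, 1.47 (1.13 to 1.90) for ATATTTA, 1.31 (0.986 to 1.74) for GTAAATA, 1.32 (0.929 to 1.89) for ACAGTGG and 2.13 (1.32 to 3.44) for AGCAGTG. The words overlap: 62 of the 119 members with GTAAATA (52.1%) have T as the next base, which makes the same stretch a copy of ATATTTA on the other strand. Of the 240 members with AAATATT or ATATTTA, 100 (41.7%) also hold GTAAACA or GTAAATA.

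The pair GTAAACA and GTAAATA was joined after this search had been seen, so its shares are given as a description with no test. It lay at 187 members (26.6%, interval 23.5 to 30.03), 21.6% of next-ranked intronic peaks, 16.9% of intergenic peaks, 17.9% of promoter peaks and 13.1% of low-ranked intronic peaks. At evenly spaced intronic positions the share was 9.66%. The odds ratio of members over low-ranked intronic peaks was 2.41 (interval 2.02 to 2.87) and, within the classes of GC content, 2.12 (1.77 to 2.53). Over next-ranked intronic peaks it was 1.32 (1.04 to 1.68), and over intergenic peaks 1.79 (1.22 to 2.61).

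Copies gathered at the summits. Members held 236 copies of the pair within 100 bp, of which 90 (38.1%, interval 32.2 to 44.5) had their centre no more than 20 bp from the summit. Low-ranked intronic peaks had 25.9% of 1496 copies there, and an even spread would put 21.0% there. For the pair the share was 28.9% of 339 copies in promoter peaks and 31.8% of 44 in intergenic peaks, with intervals that overlap that of members. AAGCAGT was that close to the summit for 34 of 68 copies (interval 38.4% to 61.6%) in members and for 24.6% of 276 copies in low-ranked intronic peaks. In promoter peaks it was that close for 81 of 180 copies (interval 37.9% to 52.3%), so its gathering was not particular to members. Intergenic peaks had 8 of 26 copies of AAGCAGT there. Copies in 1 peak share a summit, so these intervals cover counting error only.

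**Figure D4:**
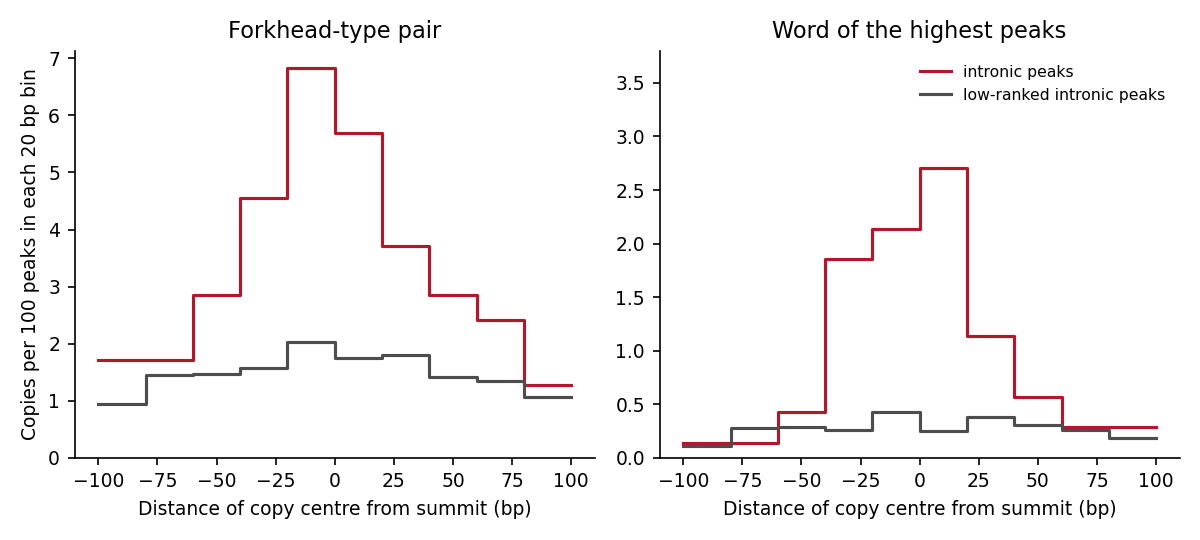
Number of word copies per 100 peaks (y axis) in bins of 20 bp by distance of the copy's centre from the summit (x axis, bp), at the left for the pair GTAAACA and GTAAATA and at the right for AAGCAGT, in intronic peaks (red) and low-ranked intronic peaks (grey). The pair reaches 6.84 copies per 100 intronic peaks in the bin just before the summit, and low-ranked intronic peaks reach 2.02 there. Copies are counted over all chromosomes.

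The forkhead-type pair and AAGCAGT met at 9 members, and 479 members (68.2%) held neither. Values of AAGCAGT by signal and rank are over all chromosomes, those that found the word included. The 45 members with AAGCAGT had a median signal of 276.6, and the 20 with 2 or more copies 390.0. Members with the pair had a median signal of 174.9, and members with neither 172.8. By rank, AAGCAGT lay at 25.8% of members of ranks 201 to 500, 9.24% of ranks 501 to 1000, 2.25% of ranks 1001 to 1600 and 4.08% from rank 1601 to the end of the list. The pair lay at 24.2%, 28.6%, 25.3% and 27.1% in the same classes of rank, and their intervals overlap.

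Below the IDR list the pair became scarcer with rank. It lay at 21.8% of intronic peaks of ranks 2822 to 5642, 14.4% of ranks 5643 to 15000 and 11.3% of ranks 15001 to 30000. Median GC content moved with this, at 39.3%, 41.8% and 42.8% in the same classes. AAGCAGT lay at 2.87%, 2.86% and 2.35% there.

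**Figure D5:**
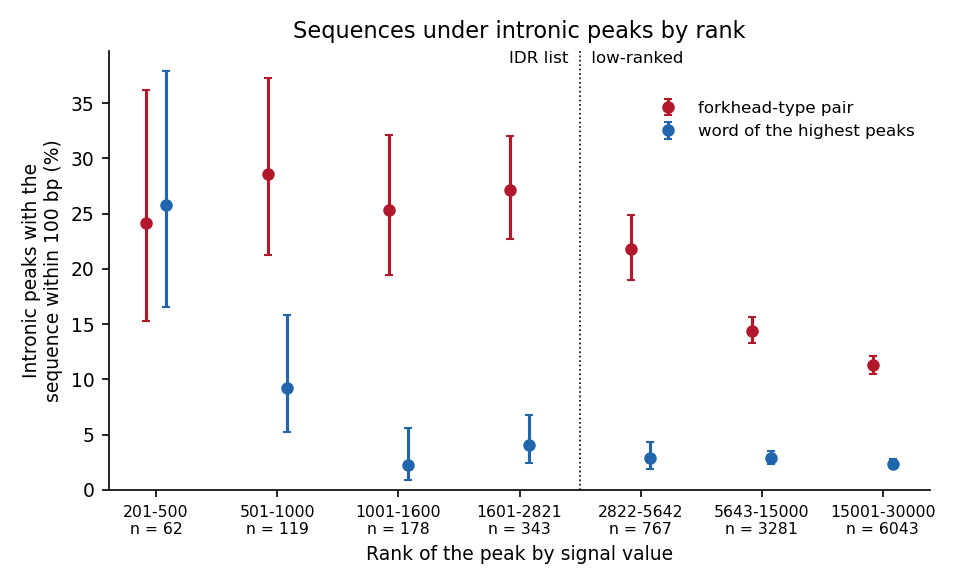
Share of intronic peaks (y axis, percent, with 95% Wilson intervals) that hold the pair GTAAACA and GTAAATA (red) or AAGCAGT (blue) within 100 bp, by class of rank (x axis, highest signal at the left); the dotted line marks the end of the IDR list. The red points stay between 24.2% and 28.6% in the IDR list and lie at 11.3% in the lowest class, while the blue points lie at 25.8% for ranks 201 to 500 and at 9.24% or lower in the other classes. Shares are over all chromosomes.

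The share of the pair was lowest on chromosome X, and it is again a description. The pair lay at 25.3% of members in a first intron and 29.5% of those in a later intron, with overlapping intervals. It lay at 26.7% of members where a gene spanning the summit had an IDR peak at a start site and 26.6% of the others. By chromosome it lay at 27.4% of members on 2L, 31.5% on 2R, 26.6% on 3L, 32.3% on 3R and 16.5% on X (27 of 164), and among low-ranked intronic peaks the shares were 13.9%, 12.8%, 13.3%, 14.1% and 11.0%. Among hosts with 4 or more members, fra, CG46385, px and bun had 3 peaks each with the pair, and tara, ush, Tlk, kirre and Hr4 had none.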

How the data were processed

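The study deposited narrowPeak lists on dm6 for each replicate, for both replicates pooled (30000 entries each) and for the IDR step. Per the labels, chromatin was sonicated to 200 to 800 bp. Per the deposited file listings, peaks were called against a separate control file. The aligner, the caller, the IDR threshold and the depth are not given in the sources used here, so intervals cover counting over peaks only. The authors' deposited signal value (column 7) ranked and described peaks within a list. The −log10 q-value that the authors deposited (column 9) entered no result. The deposited summit offset (column 10) gave summit positions.

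Genes came from Ensembl release 115 without pseudogenes and transposable elements, and sequence from RefSeq, both on the assembly of the files. Sequences were printed for members off 2R. Windows of 100 bp to each side of a summit were searched. Intervals are 95% ones, by Wilson's method for shares and by Woolf's for odds ratios, with Mantel-Haenszel values within GC classes. P-values are two-sided. Those called adjusted were adjusted within each family (33 consensus sequences, 10 words), and all others are unadjusted. Named host genes are those of the 15 highest members, those with 4 or more members, and up to 3 of highest signal in each of 7 lists. A further gene list and 1 sequence are not reported here. The members, lists and tests were chosen with earlier results of these data known. The pair of words was joined after the search had been seen, in place of a looser form that was tried first. The tests were checked on simulated data. Alternatives varied the distance, the number of peaks, the window, the background, the annotation and the replicates used. The work was done in Python 3.11.15 (numpy 2.4.6, scipy 1.17.1, pandas 2.3.3; figures with matplotlib 3.10.9).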

Additional observations from a re-analysis of the deposited data

How the results depend on the processing

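Counts of calls moved with the rule and the background. With a distance of over 500 bp from a start site, the odds ratio of AAGCAGT on 2R and 3R was 2.16 (unadjusted p = 0.0060, Fisher's exact test). At that distance 4 consensus sequences passed against low-ranked intronic peaks and 7 against promoter peaks, with 10 words. Without the 100 highest peaks in place of 200 the odds ratio of AAGCAGT was 1.97 (unadjusted p = 0.0346, Fisher's exact test). Without the 400 highest it was 1.31 (unadjusted p = 0.428, Fisher's exact test), and at over 2000 bp 1.51 (unadjusted p = 0.264, Fisher's exact test). A shorter IDR list left 297 members with an odds ratio of 3.52, and 4 sequences passed against low-ranked and 1 against promoter peaks. A window of 50 bp gave 4 and 2, and a window of 200 bp gave 3 against intergenic peaks. Against next-ranked peaks 0 sequences and 0 words passed, and the first-intron odds ratio was 1.09. Next-ranked peaks are fewer and closer in signal; which of these accounts for the lost calls was not tested. Leaving out a replicate, in which as many of the highest peaks of the other replicate replaced the IDR list, gave 673 to 687 members, 1.25 to 1.60 for AAGCAGT, 2 to 3 sequences against low-ranked, 0 to 2 against intergenic and 4 to 6 against promoter peaks, 7 to 8 words and first-intron odds ratios of 1.55 to 1.90. The odds ratios of AAGCAGT, of the Forkhead and Scalloped sites, of the pair and of first introns kept their direction in the alternatives run; for the other sequences and words only counts of calls were recomputed. Over its alternatives the odds ratio of the pair ran from 1.32 to 2.99 against low-ranked and from 1.52 to 2.19 against intergenic peaks. No paired analysis was possible because there is 1 group. Read depth is unknown and limits what a low-ranked peak can show.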
